A study of Neurospora crassa with 112 samples.

Results

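Mycelial expression was compared between wild *Neurospora crassa* strains from 2 sets of Louisiana collection sites. The first group held 15 strains, 9 from Elizabeth (JW187, JW188, JW190, JW193, JW202, JW22, JW260, JW261 and JW262), 4 from Sugartown (JW18, JW250, JW252 and JW66) and 2 from Bayou Chicot (JW204 and JW27). The second group held 18 strains, 12 from Houma (JW156, JW159, JW168, JW169, JW171, JW172, JW174, JW200, JW233, JW234, JW75 and JW76) and 6 from Coon (JW206, JW222, JW224, JW59, JW60 and JW70). These 33 strains are among 72 JW strains and 112 strains in the series, and they were chosen by the collection site in the study's strain list, not by any measured value. Where the sites lie, and so how far Coon belongs with Houma rather than with the sites of the first group, cannot be checked from expression, and the groups are therefore called by their sites.

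All 33 strains are untreated wild isolates and carry no engineered allele. Each JW strain goes back to 1 conidium, was grown as mycelium for 16 hours and was sequenced as 1 library of polyadenylated RNA. The strain is therefore the replicate, and a difference between strains cannot be told apart from a difference between cultures or libraries. To call its variants, the study mapped the reads of all strains to the laboratory strain's genome. Whether reads that differ from a reference genome were lost from the RPKM values was not tested. The study left JW168 out of its tree because it may be misclassified, so the limma contrasts were also fitted without it.

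*N. crassa* is a filamentous fungus that grows as a network of fused hyphae and spreads by asexual spores, the conidia. It guards its genome with several silencing systems. In quelling, an RNA-dependent RNA polymerase (QDE-1) and a helicase (QDE-3) give rise to double-stranded RNA, the Dicer enzymes (DCL-1 and DCL-2) cut it into small RNAs, and an Argonaute protein (QDE-2) uses these to find matching transcripts. In this fungus double-stranded RNA is known to raise the transcripts of *dcl-2* and *qde-2*. DNA methylation is a separate system, in which DIM-5 marks histones, HP1 (gene *hpo*) reads the mark and DIM-2 methylates cytosines.

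Library totals were 11367848 to 29804014 reads in the first group (median 21386556) and 8740622 to 26358960 reads in the second (median 16777847). This difference did not pass a two-sided permutation test of the means (p = 0.057). The 6 Coon libraries ran from 9009120 to 19174875 reads with a median of 12527594, and the 12 Houma libraries from 8740622 to 26358960 reads with a median of 21220894. The difference in means between these sites did not pass either (two-sided exact permutation p = 0.068). Between 673 and 1011 genes per library were listed at 0, with means of 815.5 and 836.4 in the first and second group (permutation p = 0.504). JW234 from Houma stood apart, with a median Spearman correlation of 0.860 with the other 32 libraries, against 0.902 for the next lowest, JW224. In JW234 *poi-2*, the marker used for the perithecial state, was at 4766 RPKM, whereas it was at 0.07 to 455 RPKM in the other libraries. No 2 libraries agreed within sampling noise, since the lowest chi-square of any pair was 40.8 per gene, in JW260 and JW261. This value grows with depth, so it does not rank pairs by likeness. By Spearman correlation the most alike Elizabeth pair reached 0.993, against a median of 0.932 over Elizabeth pairs. How closely the strains are related was not tested.

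Markers of conidia overlapped between the groups. Of 5 markers, 4 have a row in the table (*con-6*, *con-10*, *con-13* and *eas*). Their summed level ran from 74.0 to 17303 RPKM in the first group (median 3682) and from 109 to 11736 RPKM in the second (median 1400). By medians the sum followed *eas*, at 3545 RPKM in the first group and 1201 RPKM in the second. The medians of *con-6* were 241 and 165 RPKM. Medians were lower in the first group for *con-10* (8.73 against 18.04 RPKM) and *con-13* (0.325 against 0.482 RPKM). The 4 markers therefore showed no shared direction by medians. In the first group 1 of the 4 markers, *con-13*, was listed at 0 in at least 1 library. Since these are bulk mycelia, fewer cells of a type and less RNA per cell cannot be told apart here, and the part of the conidial signal in the comparisons that follow was not tested.

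The main question was whether any gene differed in mean expression between the 2 groups. In these libraries no difference held up. Of 7970 genes tested, with a mean of at least 1 RPKM over the 33 libraries, 0% passed an adjusted p of 0.05 in limma's moderated test on log2(RPKM + 1). RPKM are read numbers corrected for gene length and for library total. The smallest adjusted p was 0.693. Limma's voom on whole reads recovered from the RPKM values also called 0 genes. An unadjusted p under 0.05 was reached by 509 genes (6.39%), of which 194 were higher and 315 lower in the first group. No gene separated the groups strain by strain either (0% of the 7970 with every strain of one group above every strain of the other).

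The absence of calls came with fairly narrow intervals on log2(RPKM + 1), a scale that understates changes of weakly expressed genes. The median standard error of a difference was 0.13 on the log2 scale, and the median difference over all genes was -0.02. For 7282 genes (91.4%) the 95% interval of the difference lay within 1 log2 unit either side of 0, and for 5376 genes (67.5%) within 0.5. Only 54 genes (0.678%) had an estimated difference above 1 log2 unit, and none of these passed the test. Strains of one group were about as alike as strains of different groups, as the median Spearman correlation of 2 libraries was 0.941 within the first group, 0.933 within the second and 0.934 between them.

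**Figure D1:**
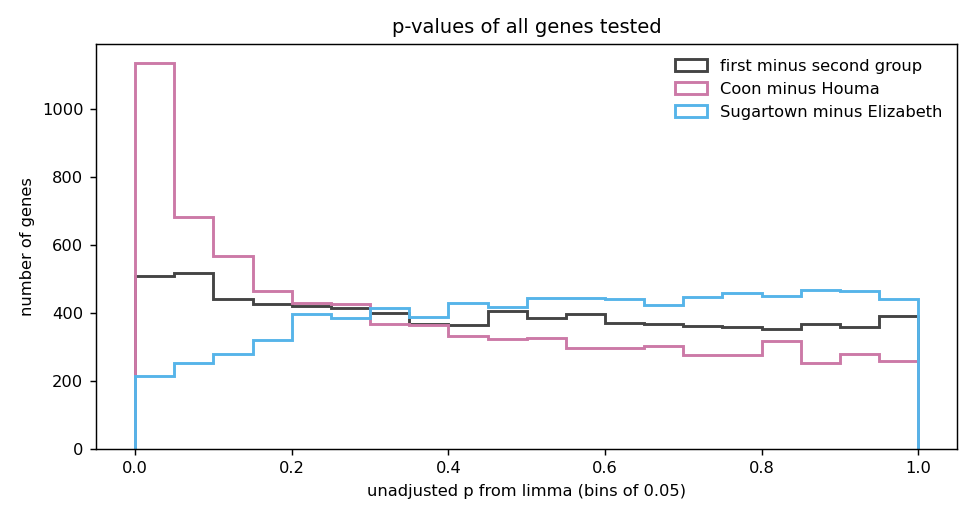
Unadjusted p-values of the 7970 genes tested (x axis, in bins of 0.05) against the number of genes in each bin (y axis), for the first group minus the second, Coon minus Houma, and Sugartown minus Elizabeth. The first bin holds 509, 1134 and 214 genes in turn.

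The 10 genes with the smallest p are given as values, since none passed the threshold. NCU05525 was at 12.6 ± 2.59 RPKM (SD) in the first group and 20.9 ± 8.37 RPKM in the second, a log2 difference of -0.61 ± 0.15 (SE). Its 15 values in the first group ran from 10.2 to 19.8 RPKM with a median of 11.9, and its 18 values in the second from 10.7 to 37.2 RPKM with a median of 19.5. The ranges overlapped, although 14 of 15 first-group strains lay below the second group's median. NCU04161 showed a difference of -0.72 ± 0.18 (6.29 against 11.1 RPKM), NCU11910 of -0.83 ± 0.20 (2.36 against 5.27 RPKM) and NCU11798 of -0.99 ± 0.26 (4.67 against 12.01 RPKM). These 4 genes carry no other name in the annotation of assembly NC12.

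Of the 10 genes, *gh1-1* (NCU00130), which encodes a beta-glucosidase family enzyme, is the one with a gene symbol. It ranged from 17.3 to 127 RPKM (median 42.2) in the first group and from 36.3 to 261 RPKM (median 90.5) in the second, with a log2 difference of -0.97 ± 0.25 (unadjusted limma p = 0.000587, adjusted p = 0.717). Again the ranges overlapped, between 36.3 and 127 RPKM, although 13 of 15 first-group strains lay below the second group's median. Lower values in the first group were also seen for NCU04542 (19.4 against 31.5 RPKM) and NCU03929 (52.4 against 87.1 RPKM). In the other direction, NCU11900 averaged 3.63 against 1.45 RPKM, NCU04334 averaged 489 against 332 RPKM and NCU03752 averaged 62.7 against 52.7 RPKM. All 10 differences had the same sign when the first group was set against Houma alone and against Coon alone, which share the first group and are no independent check. The adjusted p of these 10 genes was 0.693 to 0.717.

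**Figure D2:**
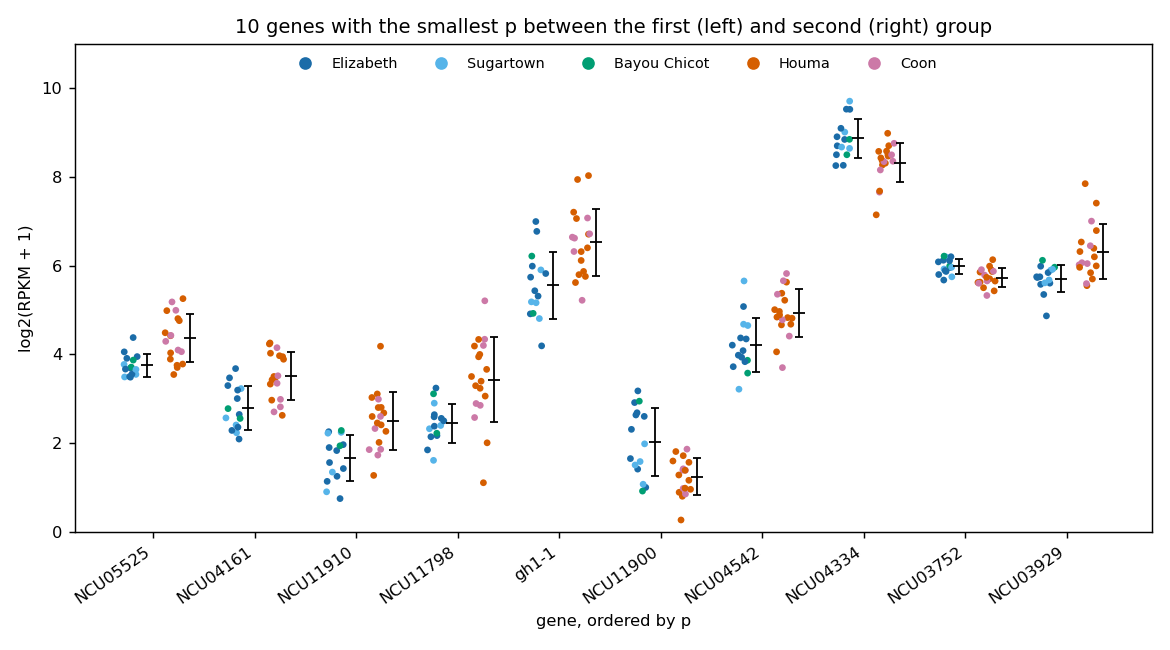
Expression as log2(RPKM + 1) (y axis) of the 10 genes with the smallest p (x axis), with the first group on the left and the second on the right of each gene. Points are strains coloured by site, bars are mean ± SD, and the groups overlap in every gene.

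Lists of genes with known roles were examined for members that differed. None of the 19 lists with tested members had a member past the threshold between the groups, and the text gives the members with the smallest p. *cse-1* (NCU04379), a homolog of a neuronal calcium sensor and the gene at the centre of the study, was at 298 ± 31.1 RPKM in the first group and 301 ± 32.3 RPKM in the second. Its log2 difference was -0.01 ± 0.06. The list of *cse-1*, its predicted partners and the mapped candidates had 22 members tested, 9 positive and 13 negative, with a median difference of -0.05. Within it NCU06949 had the smallest p (35.5 against 45.7 RPKM, difference -0.31 ± 0.13), followed by *prk-3* (-0.18 ± 0.10).

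Genes of cell fusion and of the kinase cascades had no member past the threshold. Of 16 fusion and MAK-2 genes, 8 were positive and 8 negative, and the largest departures by p were *adv-1*, a transcription factor needed for fusion (-0.29 ± 0.18), and *ham-2*, a protein needed for hyphal fusion (-0.15 ± 0.09). Among 8 genes of the MAK-1 and OS cascades, *mek-1*, the MAP kinase kinase of the cell wall integrity pathway, was at 84.7 ± 19.8 against 108 ± 28.5 RPKM (difference -0.34 ± 0.12, unadjusted limma p = 0.00831, adjusted p = 0.717), and *mik-1*, the kinase above it, differed by -0.15 ± 0.12. Among 12 calcium genes, *nca-3*, a calcium ATPase, differed by -0.86 ± 0.31 and *camk-1*, a calmodulin-dependent kinase, by -0.28 ± 0.11.

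Lists of conidiation, light and clock-controlled genes had no member past the threshold. *al-1*, the phytoene dehydrogenase of carotenoid synthesis, ran from 17.998 to 3991 RPKM (median 105) in the first group and from 20.4 to 344 RPKM (median 73.0) in the second, a difference of 1.17 ± 0.53. The second gene of that list, *wc-2*, a transcription factor of the light response, differed by -0.18 ± 0.11. *eas*, the hydrophobin that coats conidia, ran from 35.7 to 16593 RPKM and from 61.4 to 11479 RPKM, a difference of 1.16 ± 0.76. *fld*, a regulator of conidiation, differed by 0.22 ± 0.13. The clock-controlled *ccg-14* ran from 84.9 to 1019 RPKM (median 292) against 157 to 7356 RPKM (median 672), a difference of -1.40 ± 0.44, and *ccg-16* differed by -0.36 ± 0.15. In each of these genes the ranges overlapped.

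Stress and nutrient genes had no member past the threshold. *hsp80*, an Hsp90-type chaperone, differed by 0.40 ± 0.17 and *hsp60*, the mitochondrial chaperonin, by 0.38 ± 0.18. *cys-9*, thioredoxin reductase, differed by 0.18 ± 0.07 and *cys-14*, a sulfate permease, by 0.54 ± 0.27. *qa-2*, the catabolic dehydroquinase of quinic acid use, was at 4.59 against 9.49 RPKM (-0.73 ± 0.25) and *qa-X* differed by -0.22 ± 0.13. *pho-3*, an acid phosphatase, differed by -0.89 ± 0.42 and *preg*, a cyclin of phosphate control, by 0.09 ± 0.06.

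In the remaining lists the members with the smallest p were as follows. *tzn-1*, a zinc transporter, differed by 0.51 ± 0.29 and *tcu-2*, a copper transporter, by -0.13 ± 0.11. *nit-2*, the nitrogen GATA factor, differed by 0.26 ± 0.17 and *am*, glutamate dehydrogenase, by 0.16 ± 0.13. *fes-1*, an iron-sulfur subunit of respiration, differed by 0.18 ± 0.11 and *sre*, the siderophore repressor, by -0.13 ± 0.10. *cbh-1*, a cellobiohydrolase, differed by 0.29 ± 0.15 and *gh6-2*, a cellulase, by 0.15 ± 0.12. *het-6*, an incompatibility gene, differed by 0.92 ± 0.51 and *het-c*, another, by -0.16 ± 0.16. *pre-1*, a pheromone receptor, differed by 0.13 ± 0.18 and the mating type gene *mat A-1* by 0.18 ± 0.37. *mat A-1* was low, with medians of 0.625 and 0 RPKM in the first and second group, and its mean RPKM (1.22 and 2.03) went the other way. *cox-4*, a cytochrome oxidase subunit, differed by 0.16 ± 0.13 and *aod-5*, a regulator of alternative oxidase, by 0.08 ± 0.08. None of these passed the test, and all medians of the lists lay between -0.18 (clock-controlled genes) and 0.18 (mating type and pheromone genes, 3 members).

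Houma and Coon were pooled in the second group, so the next question was whether these 2 sites were alike. Between them 9 genes rose in Coon and 0 fell (0.113% of the 7970 genes, adjusted p 0.0265 to 0.0316 in limma with 1 mean per site over all 33 libraries). Among the 9 were *dcl-2*, the Dicer of quelling, and *qde-2*, its Argonaute. The other 7 carry no symbol: NCU11528, NCU04490, NCU05870, NCU05869, NCU05861, NCU09357 and NCU09717. At an unadjusted p under 0.05 stood 1134 genes (14.2%), 934 higher and 200 lower in Coon, and the median over all genes was 0.09 on the log2 scale. Every strain of one site lay above every strain of the other in 9 further genes (0.113%), none of which was among the 9 called.

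*dcl-2* (NCU06766) showed the pattern. In Houma its 12 values ran from 2.55 to 8.84 RPKM with a median of 4.04, and in Coon its 6 values ran from 5.59 to 45.8 RPKM with a median of 31.7. JW206 was the single low Coon strain at 5.59 RPKM, inside the Houma range, and the other 5 Coon strains stood at 21.2 RPKM or more. The Coon minus Houma difference was 2.31 ± 0.44 on the log2 scale, or 4.94-fold on the scale of RPKM + 1 (adjusted p = 0.0265 in limma).

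*qde-2* (NCU04730) was expressed at a higher level everywhere and differed less. It ran from 39.5 to 88.1 RPKM in Houma (median 57.8) and from 77.8 to 282 RPKM in Coon (median 138), a difference of 1.24 ± 0.24 (adjusted p = 0.0265 in limma). JW206 was again the lowest Coon strain, at 77.8 RPKM, and the other 5 lay above every Houma strain.

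NCU11528 gave the largest difference of the 9, at 6.46 ± 1.17. It ran from 0 to 25 RPKM in Houma (median 1.36), where JW234 gave the highest value, and from 6.39 to 956 RPKM in Coon (median 501). NCU04490 differed by 5.38 ± 1.07, with 0 to 13.96 RPKM in Houma and 1.82 to 356 RPKM in Coon. NCU05870 differed by 3.26 ± 0.66, its annotated neighbour NCU05869 by 3.12 ± 0.65, and NCU05861, with 7 genes between it and NCU05869, by 2.84 ± 0.57. NCU09357 differed by 2.62 ± 0.49 and NCU09717 by 2.04 ± 0.40. In all 9 genes the lowest Coon strain was JW206.

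The number of calls changed with a covariate for depth and with single libraries left out. With the log2 library total as a covariate 0 of the 9 stayed past the threshold (adjusted p = 0.178 for each, with differences of 1.07 to 5.84, beside 1.24 to 6.46 without the covariate). The number of calls fell to 0 without JW222, JW224, JW59 or JW70 from Coon or JW171 or JW174 from Houma, to 5 without JW60, JW159 or JW172, and rose to 31 without JW234.

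**Figure D3:**
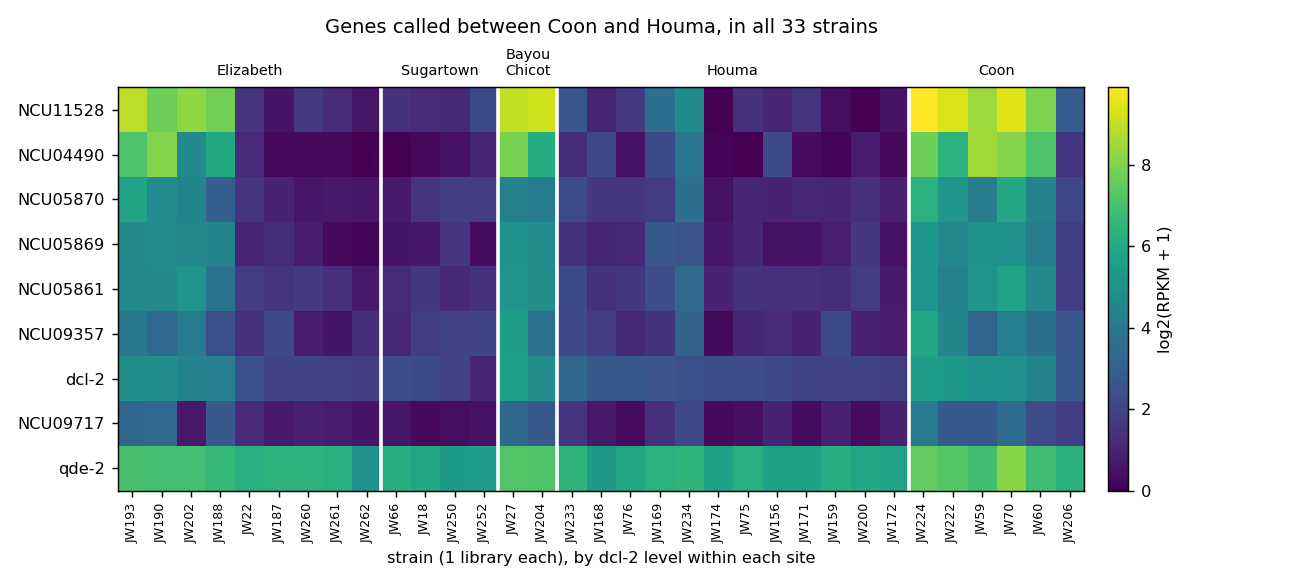
Expression as log2(RPKM + 1) (colour) of the 9 genes called between Coon and Houma (rows) in each of the 33 strains (columns), ordered by site and by *dcl-2* within a site. Light columns appear in 5 of 6 Coon, both Bayou Chicot and 4 of 9 Elizabeth strains.

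The same genes were also high in part of the first group. For *dcl-2* the 4 Sugartown strains were at 3.73, 2.93, 1.06 and 4.08 RPKM (JW18, JW250, JW252 and JW66), and the 2 Bayou Chicot strains at 28.3 and 47.8 RPKM (JW204 and JW27). The Elizabeth strains fell into 2 sets, with JW188, JW190, JW193 and JW202 at 17.99, 28.2, 29.4 and 19.9 RPKM and the other 5 at 2.47 to 4.38 RPKM. Of the 11 highest *dcl-2* values, therefore, 5 came from Coon, 4 from Elizabeth, 2 from Bayou Chicot and 0 from Houma or Sugartown. They spanned 17.99 to 47.8 RPKM, whereas the highest of the other 22 was 8.84 RPKM in JW233.

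The 11 strains with the highest *dcl-2* were also the 11 with the highest *qde-2*, NCU11528, NCU04490, NCU05861 and NCU05869. These 6 genes were the only ones of the 7970 in which the same 11 strains ranked on top, and 12 more shared 10 of the 11. *qde-2* stood at 96.0 to 282 RPKM in the 11 and at 31.4 to 88.1 RPKM in the other 22. NCU11528 stood at 209 to 956 RPKM in the 11 and at 25 RPKM or less elsewhere, and NCU05869 at 16.8 to 37.4 RPKM against 5.86 RPKM or less. Among those with 10 shared strains, NCU05870 and NCU09357 had JW234 in place of JW188, and NCU09717 had JW234 in place of JW202, which was at 0.59 RPKM. These 3 genes were called between Coon and Houma, and the other 9, among them *rrp3* (NCU08435) and NCU09755, were not. These counts describe the strains, were made after the values were seen and were not tested.

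Such strains stood on both sides, and no difference between the groups was detected in these genes. *dcl-2* averaged 13.3 ± 14.4 RPKM in the first group and 12.7 ± 14.3 RPKM in the second, a difference of -0.04 with a 95% interval of -0.99 to 0.91. For *qde-2* the means were 87.7 ± 37.5 and 93.4 ± 61.3 RPKM, and the difference was -0.02 with an interval of -0.51 to 0.48. For NCU11528 the interval ran from -2.01 to 2.95, so that the data bound the group difference only loosely. Their spread between strains was wider than that of the median gene, to unlike degrees. The standard deviation on the log2 scale in the first and second group was 0.68 and 0.75 for *qde-2*. It was 1.5 and 1.29 for *dcl-2* and 3.69 and 3.63 for NCU11528, against medians of 0.37 and 0.37 over all genes.

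Set against each site of the second group, the first group's mean lay between theirs in *dcl-2* and *qde-2*. That follows from the group and site differences given above and is no separate result. *dcl-2* differed by 0.73 ± 0.42 from Houma and by -1.58 ± 0.53 from Coon, and *qde-2* by 0.40 ± 0.22 and -0.84 ± 0.27. Neither contrast called any gene, by limma or by its voom (0% of the 7970 in each, with 500 genes (6.27%) and 1037 genes (13%) at an unadjusted p under 0.05, and smallest adjusted p of 0.214 and 0.329 in limma). Both contrasts use the same 15 first-group libraries.

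**Figure D4:**
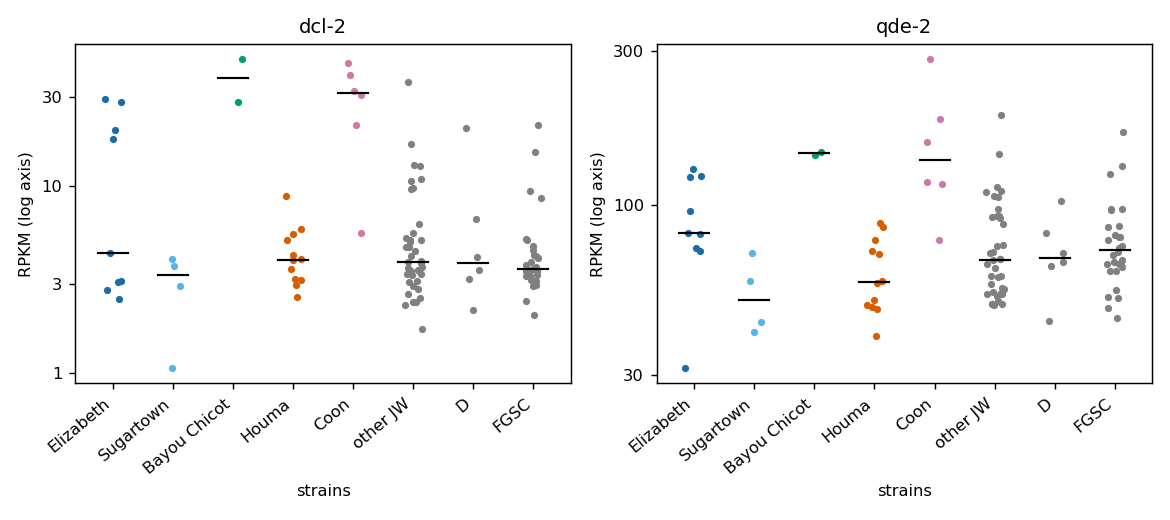
Expression of *dcl-2* and *qde-2* in RPKM (y axis, log scale) in the strains of each site and, in grey, in the other JW strains and the D and FGSC strains (x axis). Points are strains, with near-identical D and FGSC columns drawn once, and lines are medians. Coon other than JW206, Bayou Chicot and part of Elizabeth stand above Houma and Sugartown.

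In the other 75 strains of the series, with 4 near-identical pairs counted once, such values were found in a few strains. *dcl-2* reached 17.99 RPKM, the lowest of the 11, in 3 strains, 2 from Franklin and 1 from Marrero, and 9 more lay between 8.84 and 17.99 RPKM. Its median in the 75 was 3.71 RPKM and its highest value 36.3 RPKM. NCU11528 reached 209 RPKM in 2 of the 75. The difference in frequency was not tested, since the levels that mark it come from the 33 strains.

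None of the other genes of DNA methylation and silencing passed the threshold. The list has 13 members with values, and 12 of them were tested. Of these, 2 rose in Coon against Houma (*dcl-2* and *qde-2*) and 0 fell, against 0.113% called over all 7970 genes, with a median over the list of 0.21 beside 0.09 over all genes. In quelling, *qde-1*, the RNA-dependent RNA polymerase, ran from 8.32 to 14.9 RPKM in Houma and from 9.85 to 19.2 RPKM in Coon (difference 0.34 ± 0.15, adjusted p = 0.317 in limma). *qde-3*, the helicase, differed by 0.33 ± 0.14 (adjusted p = 0.293 in limma). *dcl-1*, the second Dicer, gave -0.05 ± 0.21, with 2.39 to 6.24 RPKM in Houma and 2.08 to 6.50 RPKM in Coon, and its 11 highest strains shared 5 with those of *dcl-2*.

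In DNA methylation, *dim-2*, the cytosine methyltransferase, was at 11.7 ± 2.53 RPKM in Houma and 13.6 ± 1.82 RPKM in Coon (0.22 ± 0.15). *hpo*, which encodes HP1, differed by 0.31 ± 0.12 (adjusted p = 0.25 in limma) and *dim-5*, the histone methyltransferase, by -0.17 ± 0.19. The members of the complex that guides DIM-5, *dim-7*, *dim-8* and *dim-9*, differed by 0.18 ± 0.13, 0.16 ± 0.15 and 0.19 ± 0.16. *rid-1*, needed for repeat-induced point mutation in the sexual cycle, was at 2.03 RPKM in Houma and 1.76 RPKM in Coon. *sad-1*, the polymerase of meiotic silencing, averaged 0.13 and 0.32 RPKM in the first and second group and was not tested. Between the first and the second group 1 of the 12 tested members was positive and 11 were negative, with a median of -0.05 beside -0.02 over all genes. *qde-1* had the smallest p there (-0.14 ± 0.12), followed by *rid-1* (-0.26 ± 0.21).

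**Figure D5:**
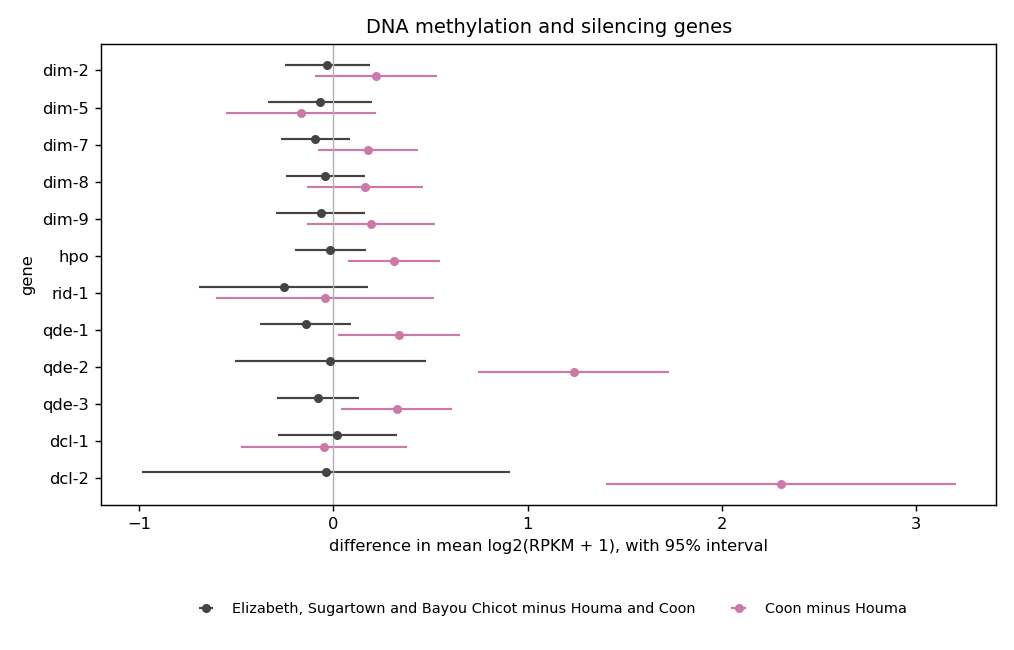
Differences in mean log2(RPKM + 1) (x axis, points, with 95% intervals) for the 12 tested genes of DNA methylation and silencing (y axis), between the 2 groups and between Coon and Houma. Only *dcl-2* and *qde-2* passed the threshold, in Coon minus Houma, at 2.31 and 1.24.

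Within the first group, Sugartown and Elizabeth were compared in the same fit. No gene passed the threshold, nor by voom (0% of the 7970, smallest adjusted p 1.0 in limma, 214 genes or 2.69% at an unadjusted p under 0.05). In 10 genes (0.125%) every Sugartown strain lay outside the Elizabeth range, among them *ad-9* and *gpr-6*, named here after their values were seen, and none was called. *dcl-2* was at 2.95 ± 1.35 RPKM in Sugartown and 12.4 ± 11.5 RPKM in Elizabeth, a difference of -1.28 ± 0.53. The intervals were wider here, with 78.5% of genes within 1 log2 unit either side of 0, since Sugartown had 4 strains. *qde-2* was at 53.5 ± 14.2 RPKM and 90.2 ± 31.4 RPKM, a difference of -0.68 ± 0.29. Bayou Chicot, with 2 strains, is given as values only.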

How the data were processed

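The authors deposited 1 table of RPKM values for 9733 genes and 112 strains (0 columns unused). RPKM correct for gene length and library total only. Per the submitters' notes, Bowtie 0.12.2 was among the tools. The aligner's settings, the counter, the annotation release and strandedness: not given in the sources used here. Reads of overlapping or antisense genes therefore cannot be told apart. The labels name a TruSeq kit, whereas the Methods describe fragmented RNA primed with random hexamers.

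Low values stepped by whole reads in all 9696 genes above 0 (100.0% of values whole within 0.001), which gave library totals. Gene lengths were multiples of 3 in 99.9%, so they are coding lengths.

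Members, gene lists, rules and tests were chosen with earlier results of these data known. Log2(RPKM + 1) was tested by limma (version 3.58.1, R 4.3.3) with a mean-expression trend and Benjamini-Hochberg adjustment at 0.05 over all genes averaging 1 RPKM or more in the fit. This scale understates changes of weakly expressed genes. Separate models had a mean per group, per site, and for the first group, Houma and Coon. Totals were compared by permutation (100000 resamples, or exact for Coon and Houma). P-values measure only the spread among strains, in which culture and library are included. The fits were tested on simulated data.

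The genes named are the 10 with the smallest p between the groups, since none passed, the 5 largest of each direction past the threshold in a site contrast, in each list the members past the threshold or else the 2 with the smallest p, and *cse-1*. NCU09357, NCU09717, the rest of the silencing list, the conidial and perithecial markers and the ranking of strains by *dcl-2* were added after the values were seen. Names came from assembly NC12 (8914 of 9733 IDs matched). The exocyst list matched 0 genes and is not reported. Alternatives covered pseudocount, filter, scaling, depth, weights, tool and strains left out. Figures were drawn by matplotlib 3.10.9, permutation tests were run in scipy 1.17.1, and tables were handled by pandas 2.3.3 over numpy 2.4.6 (Python 3.11.15).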

Additional observations from a re-analysis of the deposited data

Results flagged for a closer look

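Strains far from the others of their site were looked for in Elizabeth, Sugartown and Coon. The gap from the extreme strain to its nearest neighbour was divided by the range of the site on the log2 scale. This ratio passed Dixon's limit in 26 of 219 tests, where chance passes about 1 in 20, and the tests share strains.

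In Coon, JW206 was low in NCU11528 (ratio 0.725, 6.39 RPKM against 251 in the nearest strain), NCU04490 (0.69), NCU05869 (0.675) and NCU05861 (0.644), and high in *rid-1* (0.698) and *sad-1* (0.921, 2.64 against 0.18 RPKM). JW60 was low in *nca-3* (0.758) and *dim-7* (0.687) and high in *het-6* (0.854, 5.71 against 0.44 RPKM). JW224 was high in *mek-1* (0.717), JW70 low in *hsp80* (0.671) and JW222 low in *gh6-2* (0.645).

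In Elizabeth, JW193 was high in *al-1* (0.571, 2924 against 164 RPKM), *con-10* (0.672, 3932 against 44.1 RPKM), *con-13* (0.665) and *het-c* (0.508). JW262 was low in *qde-2* (0.585), *ham-2* (0.539) and *dim-2* (0.654). JW22 was high in NCU04542 (0.522) and JW202 in *hsp60* (0.503).

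In Sugartown, JW252 was high in *con-6* (0.919, 594 against 58.8 RPKM) and *tcu-2* (0.874) and low in *hpo* (0.9). JW18 was high in *tzn-1* (0.956) and JW66 low in *cys-14* (0.87).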

How the results depend on the processing

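Between the first and the second group 0 genes were called under all alternatives run, and with each of the 33 strains left out in turn. Coon minus Houma, with 9 calls, gave 5 with a pseudocount of 0.1 RPKM, 0 with the library total as a covariate, 4 by voom, 658 with array weights (550 higher and 108 lower) and 17 when only Houma and Coon libraries were fitted. With 1 strain left out it gave 0 to 31. The voom, array-weight, 18-library and left-out fits of this contrast were chosen after seeing the data. All 9 genes were among the 10 called by quantile normalization, the 10 called without JW168 and the 31 called without JW234. The median Coon minus Houma difference of all genes was 0.09, and -0.03 after median centring, which by construction brings it near 0. First group minus Houma gave 6 calls with array weights and 1 without JW168, and first group minus Coon gave 4 with array weights. Sugartown minus Elizabeth gave 0 throughout. The cause of these changes was not tested. Of 1061 values for single genes and lists under alternatives, 960 kept their side of the threshold or their size. A further 90 lost the threshold, 11 list medians moved and 0 single-gene differences reversed. List medians were judged by size and not by sign, and some changed sign. The conidiation median ran from -0.10 to 0.27 and the silencing median from -0.22 to 0.01 between the groups. No paired analysis was possible because the labels carry no replicate numbers that the groups share. With 1 library per strain, depth limits the weakly expressed genes most.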
